A study of Mus musculus with 9 samples.

Results

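Tumours that the carcinogen diethylnitrosamine (DEN) had induced in mouse liver were compared with normal adult liver on 1-colour Agilent arrays that measure long non-coding and protein-coding RNAs. The comparison used 6 of the 9 arrays of the series, chosen by their labels: 3 of liver cancer tissue from males aged 1 year (Liver cancer 1, 2 and 3) and 3 of liver from males aged 2 months (Adult liver 1, 2 and 3). The other 3 arrays, of fetal liver, took no part. Tumour tissue had been checked by haematoxylin-eosin staining under the microscope, per the series' design text, and its stated purpose was to find transcripts shared by fetal liver and tumour. The adult mice are not described as exposed to DEN, and no strain, DEN dose or age-matched liver is named in the sources used here. Age, DEN exposure and tumour tissue therefore differ together between the groups and cannot be told apart. The labels call the 3 samples of each group independent but name no animals, so p-values measure only the spread between these samples.

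DEN is converted inside hepatocytes, by cytochrome P450 enzymes of the cell's detoxification system, into a reactive product that alkylates DNA. Mice exposed early in life develop hepatocellular tumours months later, with mutations that drive growth signalling, and the tumours often express fewer genes of mature hepatocyte function and more genes of growth. Long intergenic non-coding RNAs (lincRNAs) are transcripts that lie between genes and code for no protein, and some act on chromatin or on other RNAs. In bulk tissue, fewer cells of a type and less RNA per cell cannot be told apart.

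Each array held 60915 probes, of which 27193 (44.6%) were well above background on all 3 arrays of liver cancer or of adult liver and were tested. A RefSeq accession listed for the probe gave a gene symbol for 15 of them. The remainder carried an identifier of the array maker or a lincRNA name, so the labelled tissues were not checked against marker genes of liver or tumour. A level below means the log2 signal relative to the 75th percentile of its array. The file headers place the 3 adult arrays and Liver cancer 1 in a first scan, and Liver cancer 2 and 3 in a second. Probes well above background made up 41.8% to 43.3% on the adult arrays and 43.9% on Liver cancer 1, but 69.4% and 68.0% on Liver cancer 2 and 3. The median SD between arrays was 0.175 log2 in adult liver and 0.435 in liver cancer.

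Among the 15 named genes, Tfrc was higher in liver cancer and Hsp90ab1 was lower, and 13 were not called. A call required a limma adjusted p below 0.05 and at least a 2-fold difference. By that rule 24.1% of all tested probes were called, 11.3% as higher and 12.8% as lower. The groups did not overlap for 10 of the 15 genes, 5 of them higher and 5 lower in liver cancer, where 47.4% of all tested probes had groups apart. All 15 genes were well above background on each of the 6 arrays, and each was measured by 20 spots of 1 probe per array. The 3 adult arrays lay close together, with an SD of 0.01 to 0.29 log2, and the SD between liver cancer arrays was 0.12 to 1.13.

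Tfrc encodes the transferrin receptor, which carries iron-loaded transferrin into the cell. Its level was 6.79, 6.75 and 6.71 in adult liver and 8.67, 7.73 and 7.73 in liver cancer. Every liver cancer array thus exceeded every adult array, and Liver cancer 1 stood above the other two. The difference was 1.29 ± 0.30 log2 (SE, n = 3 per group), or 2.45-fold, with a limma adjusted p of 0.0182. With Liver cancer 1 alone set against the 3 adult arrays of the same scan and assumed to vary like them, which is called the first scan alone below, it was 1.92 ± 0.15 and was called (limma adjusted p = 0.00494). Without Liver cancer 1 it was 0.98, just under 2-fold, and leaving out any 1 adult array ended the call (1.27 to 1.31, limma adjusted p = 0.0636 to 0.0668).

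The bases before the start site of Tfrc are shown because it was the named gene that rose. They are the RefSeq promoter window on the forward strand of GRCm38.p6 at chr16:32608646-32608895, 5′ to 3′, and the capitals mark a match to the CCAAT box. Array probes cannot show whether this window was in use.
Tfrc: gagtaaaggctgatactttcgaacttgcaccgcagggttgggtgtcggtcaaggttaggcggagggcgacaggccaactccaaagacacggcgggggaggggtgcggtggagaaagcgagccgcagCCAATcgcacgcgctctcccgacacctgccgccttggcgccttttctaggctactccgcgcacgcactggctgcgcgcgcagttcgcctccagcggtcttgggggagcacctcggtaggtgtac
The CCAAT match begins at position -124 relative to the start site. CCAAT was found on either strand in 33.8% of the 32851 promoter windows of the same length, so a match is common. The window held no match on either strand to TATAAA (12.4% of windows), GGGCGG (32.7%), CACGTG (6.02%) or TGACGT (6.47%).

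Hsp90ab1 encodes a constitutive HSP90 chaperone that helps kinases and steroid receptors fold. Its level was 6.33, 6.37 and 6.32 in adult liver and 5.94, 4.58 and 4.60 in liver cancer. The 3 liver cancer arrays all lay below the adult arrays, with the pair from the second scan far lower than Liver cancer 1. The difference was -1.30 ± 0.39 log2 (SE, n = 3 per group), 2.46-fold lower, with a limma adjusted p of 0.0436. In the first scan alone it was -0.40 and was not called (limma adjusted p = 0.122). Leaving out any 1 adult array, Liver cancer 2 or Liver cancer 3 also ended the call (-1.31 to -1.07, limma adjusted p = 0.111 to 0.133), while without Liver cancer 1 the difference was -1.75 and was called. With normexp background correction it was -0.74.

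The 2 cytoskeleton genes and a ribosomal gene stood higher on Liver cancer 1 than on the other liver cancer arrays. Tuba1b, an alpha-tubulin of microtubules, was at 7.35, 7.20 and 7.11 in adult liver and 9.55, 7.84 and 7.92 in liver cancer. Actb, cytoplasmic actin, was at 7.39, 7.31 and 7.22 against 8.61, 7.44 and 7.55. Rpl13a, a protein of the large ribosomal subunit, was at 4.95, 5.06 and 5.05 against 6.10, 5.25 and 5.21. For these 3 genes all liver cancer arrays were above all adult arrays, but the differences over the 6 arrays were not called: 1.22 ± 0.46 for Tuba1b (limma adjusted p = 0.0896), 0.56 ± 0.34 for Actb (0.248) and 0.50 ± 0.29 for Rpl13a (0.228). For the first scan alone limma called all 3 as higher, at 2.33, 1.30 and 1.08 log2. With normexp over the 6 arrays all 3 were called as well, at 1.79, 1.1 and 1.1 (limma adjusted p = 0.00814, 0.0177 and 0.0141).

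G6pd2, a glucose-6-phosphate dehydrogenase related to the enzyme that opens the pentose phosphate pathway, showed the smallest spread between liver cancer arrays of the genes that lay higher. Its level was -0.29, -0.36 and -0.46 in adult liver and 0.39, 0.30 and 0.16 in liver cancer. The groups lay apart, and the difference of 0.65 ± 0.19 log2 passed the adjusted threshold (limma adjusted p = 0.0448) but not the minimum fold. The difference of each liver cancer array from the adult mean was 0.76, 0.66 and 0.53. Ldhal6b, a lactate dehydrogenase-like gene, behaved otherwise, at 0.21, 0.04 and -0.35 in adult liver and -0.05, 2.18 and 1.37 in liver cancer. Its difference of 1.20 ± 0.54 was not called (limma adjusted p = 0.137), and Liver cancer 1 lay within the adult range. Without that array it was 1.81 and was called (limma adjusted p = 0.00626).

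Gk, glycerol kinase, which phosphorylates glycerol so that the liver can use it, was at 2.62, 2.66 and 2.75 in adult liver and 2.10, 2.37 and 2.06 in liver cancer. All liver cancer arrays lay below all adult arrays, by 0.57, 0.30 and 0.62 log2 from the adult mean, and the difference of -0.50 ± 0.20 was not called (limma adjusted p = 0.105). With normexp it was 0.01. B2m, beta-2-microglobulin, which pairs with the heavy chain of MHC class I, was among the brightest probes at 10.33, 10.30 and 10.32 in adult liver and 10.45, 9.62 and 9.60 in liver cancer. The difference of B2m (-0.43 ± 0.28, limma adjusted p = 0.289) had the opposite sign on Liver cancer 1.

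Nono, a nuclear RNA-binding protein, and Tbp, which binds the TATA box to start transcription, showed the same split between scans as Hsp90ab1. Nono was at 6.33, 6.17 and 6.08 in adult liver and 5.99, 4.27 and 4.33 in liver cancer (-1.33 ± 0.47, limma adjusted p = 0.0727). Tbp was at 2.70, 2.64 and 2.55 against 2.46, 1.16 and 1.21 (-1.02 ± 0.37, limma adjusted p = 0.0793). Neither was called, although the groups lay apart. Without Liver cancer 1 both were called, at -1.89 and -1.44, and within the first scan they were at -0.20 and -0.17.

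The remaining genes are often used as references for normalisation. Gapdh, a glycolytic enzyme, was at 10.61, 10.58 and 10.59 in adult liver and 10.79, 9.33 and 9.43 in liver cancer. Hprt, of purine salvage, was at 8.40, 8.37 and 8.38 against 8.26, 7.37 and 7.36. Ppia, cyclophilin A, was at 10.19, 10.16 and 10.16 against 10.31, 9.28 and 9.45. None of the 3 was called (-0.75, -0.72 and -0.49 log2), nor was the lysosomal enzyme gene Gusb (-0.19). Within the first scan Gapdh (0.20), Ppia (0.14) and Gusb (0.46) were on the other side of 0, and Hprt was at -0.12. Without Liver cancer 1, Gapdh (-1.22, limma adjusted p = 0.000846) and Hprt (-1.01, 0.0013) were called as lower.

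Of the 15 genes, 13 were higher on Liver cancer 1 than on both arrays of the second scan, by 0.84 to 1.69 log2 for all but G6pd2 (0.16) when set against the mean of those arrays. The exceptions were Gk (-0.11) and Ldhal6b (-1.83). The plot of each gene's difference from the adult mean shows this. Within the first scan limma called 4 genes as higher (Tfrc, Tuba1b, Actb and Rpl13a) and none as lower, where 10.1% and 10.0% of all probes measured there were called. Over the 6 arrays it called 1 and 1, where the shares of all probes were 11.3% and 12.8%. Near-identical copies exist in the gene families of Hsp90ab1, Tuba1b, Actb, Rpl13a, Ppia, Gapdh, G6pd2 and Ldhal6b. The signal of those 8 genes may include that of a copy, which makes them uncertain.

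**Figure D1:**
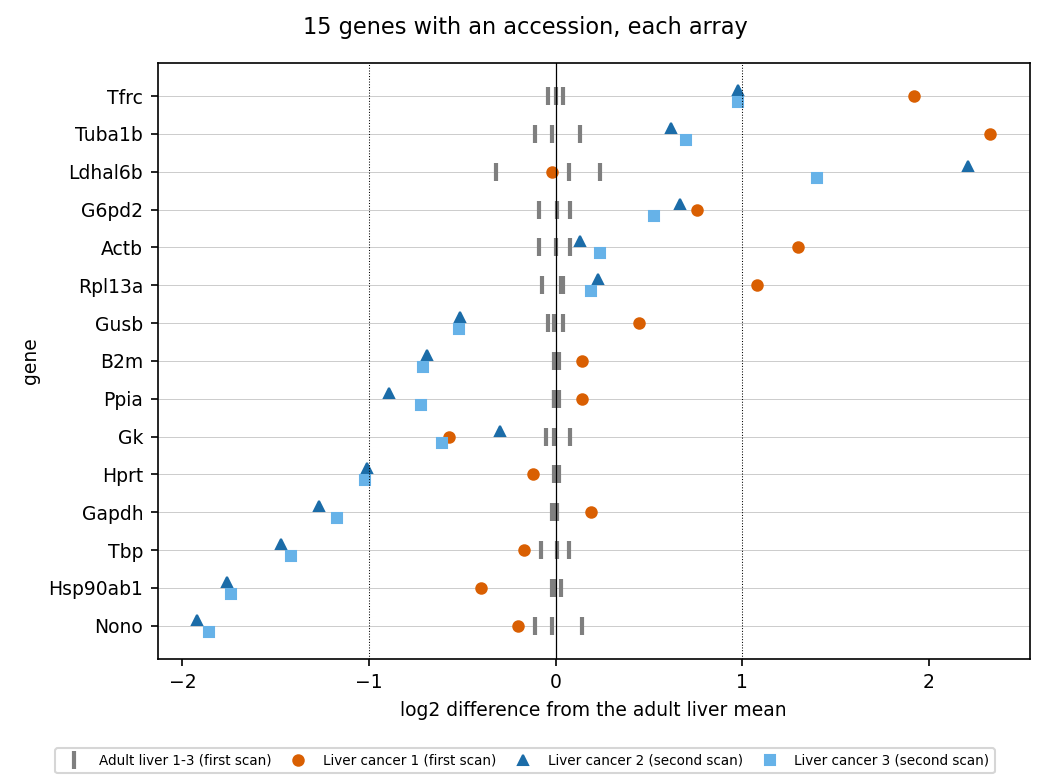
Log2 difference of each array from the mean of the 3 adult liver arrays, for the 15 genes named by an accession, ordered by the mean difference. Grey ticks are the adult arrays, the circle is Liver cancer 1 (first scan), and the triangle and square are Liver cancer 2 and 3 (second scan). Dotted lines mark a 2-fold difference. For 13 genes the circle lies to the right of both other liver cancer symbols.

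Control probes printed on the arrays gave a sign of RNA quality, since degraded RNA loses signal toward the 5′ end. For Pgk1, a glycolytic enzyme, the array carries probes near the 3′ and the 5′ end of the transcript. The log2 signal at the 3′ end exceeded that at the 5′ end by 5.09, 5.11 and 5.03 in adult liver and by 6.49, 6.48 and 6.61 in liver cancer. The gap was wider on every liver cancer array, in both scans, by 1.45 log2 (exact permutation test, two-sided, p = 0.1, the smallest that 3 against 3 arrays can give). For Gapdh the gap was 1.17, 1.23 and 1.19 against 1.6, 1.29 and 1.33 (0.21, exact permutation p = 0.1). Relative to the 75th percentile, the 3′ probe of Pgk1 lay 1.1 log2 below adult liver and its 5′ probe 2.55 below. Such a gap moves with the group, and its part in the differences between liver cancer and adult liver was not tested.

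Over all 27193 tested probes, limma called 6562, of which 3071 were higher in liver cancer and 3491 lower. The difference was at least 4-fold for 1111 higher and 1180 lower probes, and at least 16-fold for 156 and 141. The median difference was 1.69 log2 among probes called higher and -1.67 among those called lower; the extremes were 8.09 and -10.41. Without Liver cancer 1 the calls numbered 4175 higher and 5372 lower. Scaling each array to its median moved the median difference of all probes from -0.03 to -0.31, and the share of calls that were higher from 46.8% to 33.5% (1985 higher, 3938 lower).

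The 3 tumours moved the same way on called probes. Of the probes called higher, 76.9% were at least 2-fold above the adult mean on Liver cancer 1, 91.6% on Liver cancer 2 and 93.5% on Liver cancer 3, with medians of 1.59, 1.75 and 1.80 log2. Of those called lower, 69.4%, 96.4% and 95.5% were at least 2-fold below, with medians of -1.37, -1.90 and -1.83. On no array did a called probe lie on the opposite side of the adult mean. Since all 3 arrays entered the call, this describes the called set and is no separate evidence. Nor could the fit of Liver cancer 1 below, which reuses that array and the adult arrays, call such a probe the opposite way. Calls shared with that fit are therefore no separate evidence either. The calls that were also at least 2-fold on each liver cancer array numbered 1968 higher (7.24% of tested probes) and 2211 lower (8.13%). Liver cancer 1 set alone against the adult arrays gave 5399 calls among the 26863 probes measured there (20.1%), of which 2707 were higher (10.1%) and 2692 lower (10.0%). It shared 1808 of the higher calls (58.9%) and 2266 of the lower calls (64.9%) with the fit over 6 arrays, and 0 probes were called in opposite directions.

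In the second scan the difference from adult liver varied with the brightness of the probe. Among the 22180 probes well above background on all 6 arrays, split into 10 equal classes of 2218 by adult level, the median difference on Liver cancer 1 stayed between 0.03 and 0.19 log2. On Liver cancer 2 it ran from 0.21 in the dimmest class to -0.63 in the brightest, and on Liver cancer 3 from 0.27 to -0.59. In the dimmest class 12.4% of probes were called higher and 0.992% lower. In the brightest, 3.56% were higher and 16.2% lower. Dim probes that fell to background in liver cancer are not in these classes, so falls are under-represented in the dimmest class. Among the 22180 probes 1721 were higher and 2865 lower (20.7% called), at a median difference of -0.12. The named genes with levels above 5.51, the lower edge of the brightest class, are Tfrc, Tuba1b, Actb, B2m, Ppia, Hprt, Gapdh, Hsp90ab1 and Nono. A fit over the 6 arrays with a block for scan takes the difference from Liver cancer 1 against the adult arrays. Its match with the first scan alone, seen for each of these genes, was therefore fixed in advance and does not test scan. The part of scan in their differences was not tested. With cyclic loess, which removes a level-dependent gap between arrays, Tfrc was at 1.49 and Hsp90ab1 at -1.18, both called, and Tuba1b (1.43) and Nono (-1.21) were called as well.

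**Figure D2:**
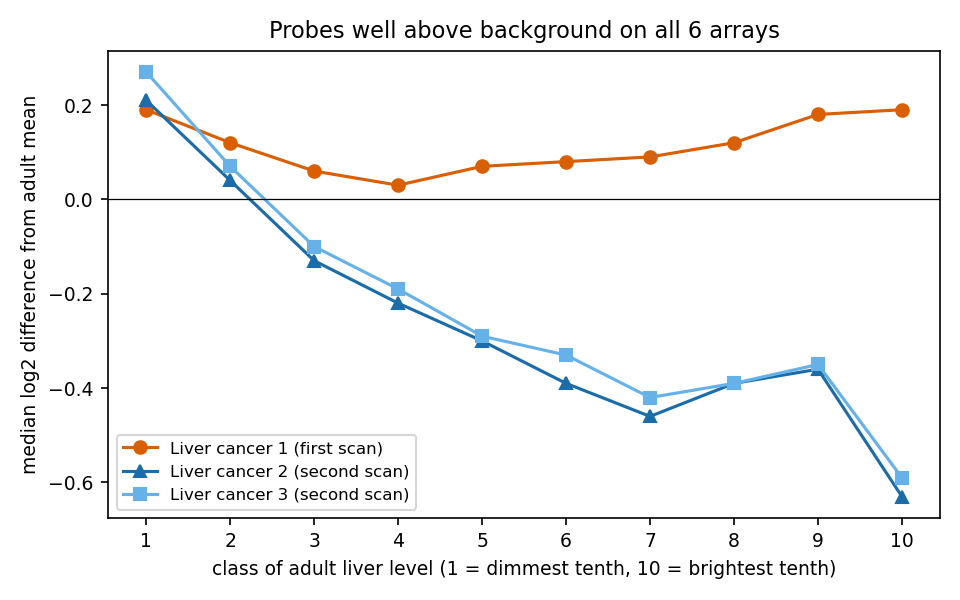
Median log2 difference from the adult mean (y axis) of each liver cancer array in 10 equal classes of adult level (x axis, dimmest to brightest), for the 22180 probes well above background on all 6 arrays. The line of Liver cancer 1 stays between 0.03 and 0.19, and the lines of Liver cancer 2 and 3 fall to -0.63 and -0.59 in the brightest class.

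Some probes were well above background in one tissue only, by differences that were often small. Of the tested probes, 1651 were well above background on all liver cancer arrays and on no adult array, of which 979 were called. A further 52 showed the reverse, all called, where 24.1% of all tested probes were called. These probes passed the filter only through the group where they were brighter, which favours a call in that direction. For these the fold is a lower bound: the mean of the brighter group against the mean, over the dim group's arrays, of the higher of the probe's own signal and the lowest signal well above background. By that bound 456 of the 1651 were at least 2-fold higher in liver cancer, 158 at least 4-fold and 25 at least 16-fold. All 52 probes of the reverse set were at least 2-fold lower, 39 at least 4-fold and 6 at least 16-fold. The second scan, with its larger share of probes above background, holds 2 of the 3 liver cancer arrays, and its part in the larger first set was not tested.

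The widest differences were found among array-maker P probes without a gene name, a class that holds 26644 of the 27193 tested probes. It held 155 of the 156 higher and 141 of the 141 lower calls of at least 16-fold, as its share would give. The probe ASMM10P047496 was at -4.37, -4.56 and -3.76 in adult liver and at 4.39, 3.65 and 3.56 in liver cancer, at least 67.6-fold higher (limma adjusted p = 3.18e-05). The probe ASMM10P035578 was at -4.23, -3.58 and -3.42 against 2.83, 4.72 and 4.87, at least 81.8-fold higher (limma adjusted p = 0.000178). Next came ASMM10P035753, ASMM10P051337 and ASMM10P044480, at least 59.9-fold, 51.2-fold and 58.0-fold higher. In adult liver none of these 5 probes rose clear of background on any array. Within the first scan their measured differences were 6.57 to 8.61 log2. They were chosen as at least 2-fold from the adult mean on each liver cancer array, so this is no separate evidence.

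The largest fall was that of ASMM10P027186, at 5.82, 5.59 and 5.61 in adult liver and -4.53, -4.79 and -4.90 in liver cancer, at least 600-fold lower (limma adjusted p = 7.62e-06). It was not well above background on any liver cancer array. The probes ASMM10P027612 and ASMM10P019947 were at least 148-fold and 196-fold lower in the same way. ASMM10P029345 fell from 5.80, 5.73 and 5.55 to -2.74, -2.85 and -2.50 (-8.39 ± 0.21 log2, limma adjusted p = 1.67e-05), and was well above background on 2 liver cancer arrays. ASMM10P027185 was at 7.11 and 6.98 on Adult liver 2 and 3, its spot on Adult liver 1 being an outlier, and at -0.58, -0.83 and -0.99 in liver cancer (-7.85 ± 0.25, limma adjusted p = 3.49e-05). All 10 of these probes kept their direction and their call under each alternative that could be computed for them.

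Several of the strongest probes had neighbouring identifiers. Of the array-maker P probes called, at least 16-fold apart and at least 2-fold on each liver cancer array, 146 were higher and 141 lower, and 7 and 12 of them stood next to another of the same direction. Windows of identifiers around such probes are described here because of their values, which were seen first, and the sources used here do not say what the order of the identifiers means. In the window from ASMM10P027181 to ASMM10P027186 all 5 tested probes were lower in liver cancer. One of them, ASMM10P027182, was among the brightest on the array at 10.36, 10.38 and 10.34 in adult liver and stayed at 8.96, 9.17 and 9.25 in liver cancer (-1.23 ± 0.20, limma adjusted p = 0.0041). Its neighbour ASMM10P027184 fell from 4.35, 4.41 and 4.29 to -3.29, -2.38 and -2.61 (-7.11 ± 0.28), and was well above background on only 2 liver cancer arrays.

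A second window of lower probes ran from ASMM10P029341 to ASMM10P029348, where 5 of 6 tested probes were called. Besides ASMM10P029345 these were ASMM10P029348 (-7.01 ± 0.32), ASMM10P029347 (-5.66 ± 0.49), ASMM10P029343 (-5.12 ± 0.29) and ASMM10P029344 (-4.35 ± 0.48). ASMM10P029344 was well above background on only 2 liver cancer arrays. The sixth, ASMM10P029341, was at background in adult liver and at 0.33 without a call. The adult levels of the 5 lower probes ranged from 2.11 to 5.80, and no liver cancer level exceeded 0.92. Within the first scan these 5 were at -8.44 to -4.52, which is no separate evidence because Liver cancer 1 entered their choice.

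In 2 of the windows most probes were higher. From ASMM10P035574 to ASMM10P035582, 5 of 7 tested probes rose, among them ASMM10P035577, at -4.27, -4.37 and -4.47 in adult liver and 1.48, 1.36 and 1.61 in liver cancer, at least 13.0-fold higher. ASMM10P035581 was at least 21.8-fold higher and ASMM10P035579 at least 8.11-fold, while ASMM10P035582 was not called in the first scan alone (1.45). The probe between them, ASMM10P035580, went the other way without a call (-1.03 ± 0.38, limma adjusted p = 0.0849). From ASMM10P042200 to ASMM10P042208, 5 of 6 tested probes rose. Here ASMM10P042208 went from 0.68, -0.42 and 0.51 to 3.84, 4.00 and 4.09, while ASMM10P042200 was at 3.45, 3.60 and 3.82 in adult liver and at 4.37 on Liver cancer 1 but 8.23 and 8.14 on Liver cancer 2 and 3. The call of ASMM10P042200 was absent within the first scan (0.75). Windows around 3 other pairs held fewer called probes: 3 of 4 lower beside ASMM10P000291, 2 of 5 lower beside ASMM10P042293 and 2 of 4 higher beside ASMM10P041758. In the last of the 8 windows neighbours parted: ASMM10P018056 fell by 5.58 log2 and ASMM10P018057, next to it, was at least 4.70-fold higher.

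**Figure D3:**
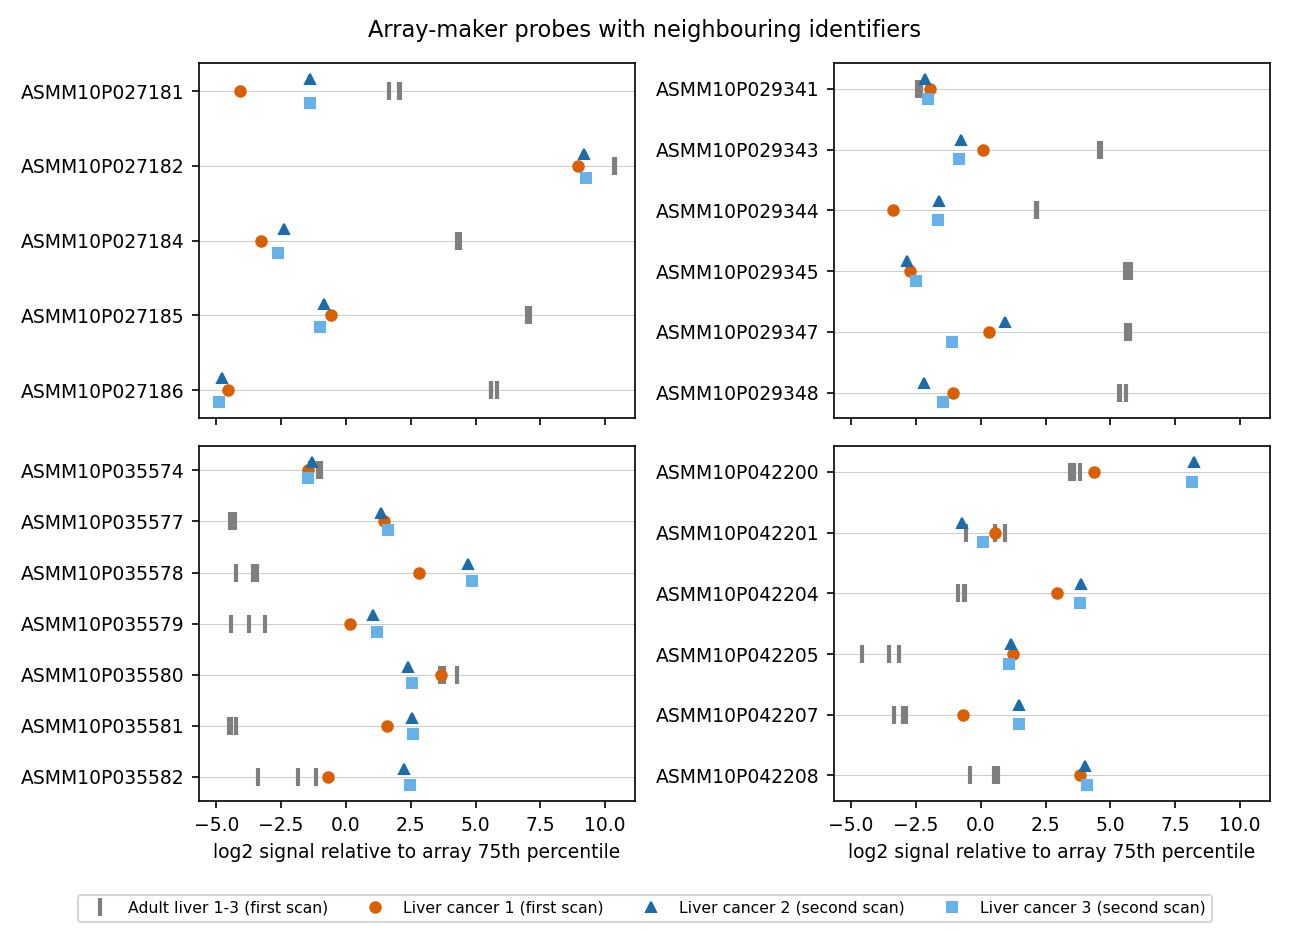
Log2 level relative to the array's 75th percentile (x axis) of the tested array-maker probes in the 4 of 8 windows of neighbouring identifiers with the most probes called one way, 1 row per probe. Grey ticks are the 3 adult liver arrays, the circle is Liver cancer 1, and the triangle and square are Liver cancer 2 and 3. In the upper windows 5 of 5 and 5 of 6 probes were lower in liver cancer, and in the lower windows 5 of 7 and 5 of 6 were higher.

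Probes with lincRNA names were rarely detected. Of 1836 on the array, 369 (20.1%) were tested: 212 named humanlincRNA, 134 named mouselincRNA and 23 for lincRNA exons of mm9. In liver cancer 33 were higher and 24 lower, together 15.4% against 24.1% of all tested probes, and their median difference was 0.10 log2 against -0.03. In the first scan alone 11 of the 33 (33.3%) and 18 of the 24 (75%) were also called, against 58.9% of the higher and 64.9% of the lower calls over all probes. The count of 57 was 103 without Liver cancer 1, 36 without Liver cancer 3, and 33, 37 and 34 without Adult liver 1, 2 and 3. Calls over all probes moved the same way in these fits, from 6562 to 9547, 4829, 4567, 4521 and 4597. Well above background were 19% to 19.7% of lincRNA-named probes on the adult arrays, 19.6% on Liver cancer 1, and 46.8% and 42.8% on Liver cancer 2 and 3. With a block for scan the count was 41, and calls over all probes were 5596. That fit takes the difference from Liver cancer 1 against the adult arrays, so it cannot separate the second scan from the tumours on it. The part of the second scan in the count was not tested.

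**Figure D4:**
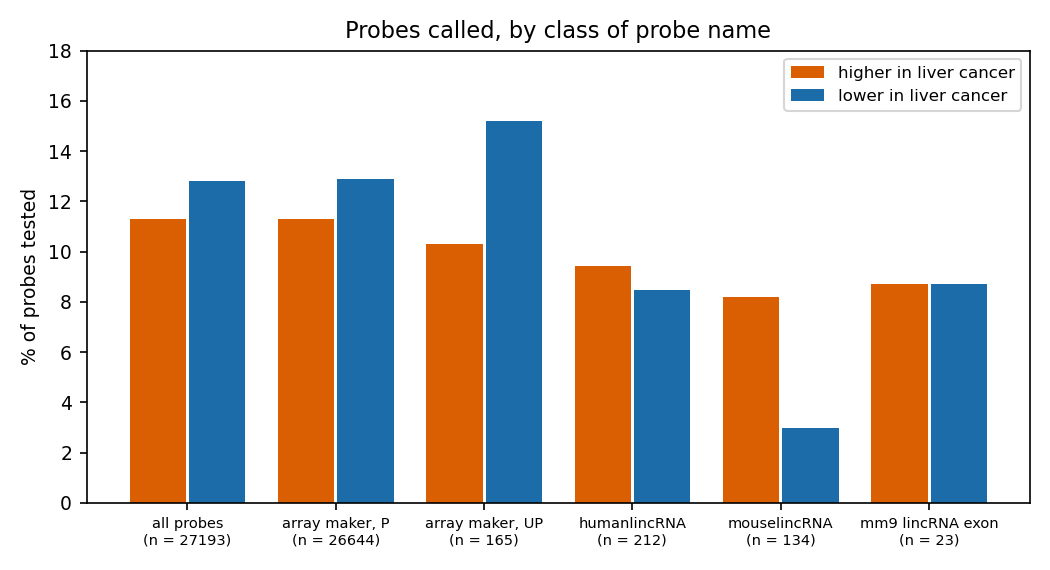
Share of tested probes (y axis, percent) called higher or lower in liver cancer by limma, for all probes and for 5 classes of probe name with the number tested under each. Bars have no error because each is a share of 1 fixed set of probes. The share called lower is 12.8% over all probes, 15.2% for UP probes and 2.99% for mouselincRNA probes.

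The lincRNA probe with the largest rise was humanlincRNA0111+_P1, at 0.40, 0.65 and 0.30 in adult liver and 5.29, 4.63 and 4.71 in liver cancer. All 6 arrays had it well above background, and the groups were far apart. The difference was 4.42 ± 0.25 log2 (SE, n = 3 per group), or 21.5-fold, with a limma adjusted p of 8.82e-05. A tighter, smaller rise was that of mouselincRNA1468-_P1, from -0.37, -0.34 and -0.42 to 1.84, 1.72 and 1.66 (2.12 ± 0.19, 4.35-fold, limma adjusted p = 0.000389). The 2 scans gave nearly equal values for it.

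Of the probes that fell, mouselincRNA1636+_P1 was at 1.87, 1.47 and 1.49 in adult liver and -1.44, -1.0 and -1.85 in liver cancer. Its difference was -3.04 ± 0.28, 8.22-fold lower (limma adjusted p = 0.000427), with all arrays above background. MM9LINCRNAEXON11806+_P1 was at 2.16, 1.85 and 1.72 against 0.30, -1.12 and -0.31 (-2.29 ± 0.37, limma adjusted p = 0.00464). These 4 lincRNA probes kept their direction and their call under each alternative computed. Liver cancer 1 entered their choice, so the first scan alone is no separate evidence.

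Other lincRNA probes depended on single arrays. The probe humanlincRNA1627+_P1 was at 1.39, 0.53 and -0.25 in adult liver and -1.41, -5.35 and -2.17 in liver cancer (-3.53 ± 0.99, limma adjusted p = 0.0364). It was well above background on only 2 liver cancer arrays. Its call was lost without any 1 adult array or without Liver cancer 3, at -3.94 to -3.12, and within the first scan (-1.96). The probe mouselincRNA1040+_P1 was at -2.71, -3.56 and -1.80 against -1.63, 2.53 and 2.90 (3.96 ± 1.17, limma adjusted p = 0.0434). Liver cancer 1 stood near the adult arrays here, and the call was lost without any 1 adult array (3.52 to 4.40) without Liver cancer 2 (3.32) or 3 (3.14), and in the first scan alone (1.06). The probe humanlincRNA0219+_P1, at 1.40, 1.99 and 0.95 against -0.53, -3.57 and -1.48 (-3.31 ± 0.74, limma adjusted p = 0.0156), was called within the first scan (-1.98), but not with scan as a block over the 6 arrays (-1.98, limma adjusted p = 0.159) and not without Adult liver 1 (-3.33) or 2 (-3.04). Below background on all adult arrays were humanlincRNA1590+_P1, at least 7.44-fold higher, and humanlincRNA2282-_P1, at least 1.78-fold higher. The former was not called in the first scan alone (2.82, limma adjusted p = 0.0772). The latter was not called with signals floored at background (0.83) or with normexp (0.02).

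**Figure D5:**
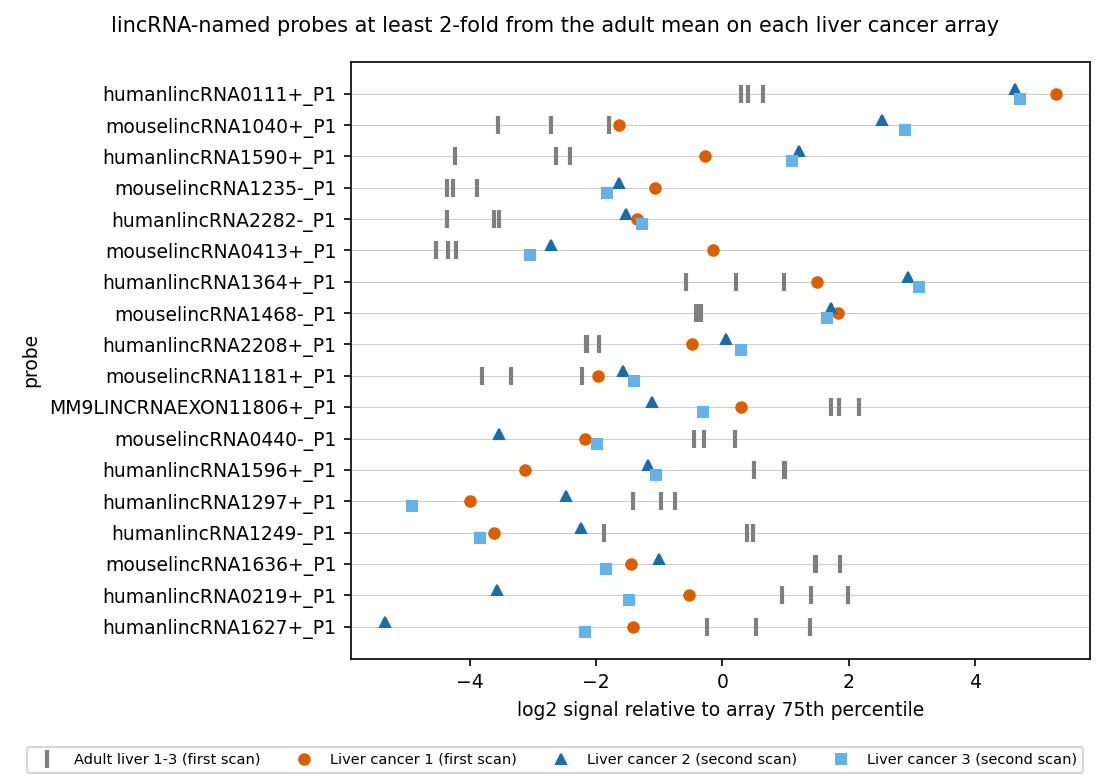
Log2 level relative to the array's 75th percentile (x axis) of the named lincRNA probes that were called and at least 2-fold from the adult mean on each liver cancer array, ordered by their difference. Grey ticks are the 3 adult liver arrays, the circle is Liver cancer 1, and the triangle and square are Liver cancer 2 and 3. The probe humanlincRNA0111+_P1 has all liver cancer arrays at 4.63 or above and all adult arrays at 0.65 or below.

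The + and - in a lincRNA name were paired by number for 876 names. Both members were tested for 40 of these pairs and 1 member for 270. Of the 40, both members were called in the same direction for 1, in opposite directions for 0, and 1 member alone was called for 12. Of the 270 probes tested without their partner, 39 were called. For comparison, 15.4% of lincRNA-named probes and 24.1% of all tested probes were called. The pair called together was humanlincRNA1627, whose - probe was at 0.14, 0.37 and 0.54 in adult liver and -1.25, -1.79 and -1.31 in liver cancer (-1.80 ± 0.24, limma adjusted p = 0.00204). The + probe of this pair was well above background on only 2 liver cancer arrays. In the pair mouselincRNA0453 the + probe was at 5.09, 5.55 and 5.27 against 6.47, 6.41 and 6.39 (1.12 ± 0.21, limma adjusted p = 0.00816), and the - probe was not called (-0.24). A call in 1 member alone does not show that the members differ, which was not tested.

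Array-maker probes of the UP class, a label that the sources used here do not explain, were detected about as rarely as lincRNA probes. Of 923 on the array 165 (17.9%) were tested, and 17 were higher and 25 lower in liver cancer, 25.5% against 24.1% of all tested probes. In the first scan alone 3 of the 17 (17.6%) and 19 of the 25 (76.0%) were also called, against 58.9% and 64.9% over all probes. The probe ASMM10UP087 was at 1.89, 2.00 and 2.12 in adult liver and at -1.71, -1.70 and -1.71 in liver cancer (-3.71 ± 0.19, 13.1-fold lower, limma adjusted p = 6.78e-05). ASMM10UP755 fell from 4.73, 4.41 and 3.94 to 0.24, 0.73 and 1.1 (-3.67 ± 0.31, limma adjusted p = 0.000336), and both kept their call under each alternative computed. The highest UP probe, ASMM10UP049, rose from -2.33, -1.77 and -2.68 to -0.63, 0.36 and 0.53 (2.34 ± 0.38, limma adjusted p = 0.00469), but was not called within the first scan (1.63) or with normexp (0.90). ASMM10UP253, not well above background on any liver cancer array, was at least 4.37-fold lower.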

How the data were processed

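One array per liver sample measured Cy3-labelled copies of its total RNA. The deposited intensity values were made by the authors with Agilent Feature Extraction 11.0.1.1, per the file headers, which subtracts background and does not scale arrays to each other. Unprocessed median spot and background intensity was deposited as well. Spots marked as outliers (0.31% to 1.43%) were left out, 0 spots were saturated, and the processed intensity deposited by the authors was put on the log2 scale, averaged per probe and set relative to the 75th percentile of its array. Probes were tested if well above background on all 3 arrays of a group and usable on at least 2 arrays per group; 360 probes failed the latter.

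The comparison used limma 3.58.1 in R 4.3.3 over the 6 arrays, with Benjamini-Hochberg adjustment over 27193 probes. A fit over all 9 arrays was an alternative. Named were all 15 genes with an accession and, per class of probe names, up to 5 called probes in each direction with the largest differences among those at least 2-fold on each liver cancer array. The groups, probe classes and lists were chosen with earlier results of these data known. The rule on gene lists by symbol could not be applied. The windows of neighbouring identifiers and cyclic loess were chosen after seeing the data. Promoter sequences came from RefSeq. The call rule was tested on simulated data with equal spread in both groups and no difference between scans, unlike these arrays. Files were read with the data.table package (version 1.17.8), and figures drawn with matplotlib 3.10.9 in Python 3.11.15. Precision is limited by the small number of arrays.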

Additional observations from a re-analysis of the deposited data

Results flagged for a closer look

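The spike-in control probe (+)E1A_r60_3 of the array maker stood above background on all 3 liver cancer arrays and on no adult array. Its log2 processed signal was 3.60, 3.94 and 3.89 in adult liver and 4.83, 7.80 and 7.56 in liver cancer, a difference of the means of 2.92. It lies outside the tested probes, and the values on Liver cancer 2 and 3 exceeded that on Liver cancer 1. Of 83 control probes, 1 was above background on Liver cancer 1 but on no adult array, and 14 and 13 were so on Liver cancer 2 and 3. The bright corner control was at 14.19 to 14.39 log2 on the arrays of the first scan and at 16.85 and 16.84 on those of the second.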

How the results depend on the processing

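Over the alternatives the 6562 calls (3071 higher, 3491 lower, 57 lincRNA-named, 2 named genes) changed by over 1.5 times as follows, and the causes were not tested except that stricter thresholds and filters leave fewer probes. An adjusted p below 0.01 gave 3904 calls (1665 higher, 2239 lower, 26 lincRNA-named, 0 named genes), and limma's treat against 1.5-fold 3465 (1485, 1980, 25 and 0). Array weights, which gave Liver cancer 1 a weight of 0.08, gave 10350 (4648, 5702, 132 and 5). Normexp gave 4256 in all, 2060 lower and 4 named genes. The array median gave 1985 higher and 0 named genes, no filter on dim probes 36 lincRNA-named and 0 named genes, and probes above background on all 6 arrays 1718 higher and 30 lincRNA-named. Named genes numbered 5 with all 9 arrays in the fit, and 4 each with a block for scan, in the first scan alone and with cyclic loess. Without 1 array in turn there were 2445 to 5372 lower calls, 33 to 103 lincRNA-named and 0 to 6 named genes, with totals of 4521 to 9547. The replicate block gave 6778 calls, 65 lincRNA-named and 3 named genes. Same-numbered arrays did not deviate together (r = 0.16, -0.19 and -0.05 across probes). Since Liver cancer 1 was scanned apart from Liver cancer 2 and 3, these values cannot decide whether the numbers pair the arrays. No alternative called a probe in the opposite direction.

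Signs turned in the first scan alone, and with a block for scan, for Ldhal6b (-0.02), Ppia (0.14), Gapdh (0.20), Gusb (0.46) and B2m (0.14). B2m was at 0.00 with quantile normalization. With normexp they turned for Ppia (0.09), Gk (0.01), Gusb (0.37), B2m (0.10), ASMM10UP885 (-0.14), mouselincRNA1235-_P1 (-0.08), mouselincRNA0413+_P1 (-0.26) and mouselincRNA1181+_P1 (-0.15), all uncalled there. The offset of 50 that normexp adds compares with a median processed signal of 11.7 to 14.5 on the 4 arrays scanned first and of 71.6 and 67.0 on the other two. Of 25 alternatives, 9 ended the call of Tfrc and 12 that of Hsp90ab1. The call of mouselincRNA1040+_P1 was lost under 14 of 24 and that of humanlincRNA1627+_P1 under 9 of 24. Signal over background limits dim probes: 3997 tested probes were not above background on all adult arrays and 1016 not on all liver cancer arrays.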
